A study of Mus musculus with 11 samples.

Results

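The 9 genes described here encode the surfactant proteins (Sftpa1, Sftpb, Sftpc, Sftpd) and proteins of the lamellar body and of surfactant lipid handling (Abca3, Lamp3, Slc34a2, Napsa, Lpcat1). They were chosen by symbol, each matched 1 row of the deposited tables, and they make up 9 of the 31053 genes counted. The study profiled dissociated lung of aged mice in 11 libraries, using the 10x Genomics droplet method, which reads the 3′ ends of transcripts cell by cell. Its title names capillary loss and emphysema and the induction of mTert, the mouse telomerase reverse transcriptase gene, in p21-positive cells. The genotype labels give 1 wild-type library (WT, +/+), 3 libraries of p21 heterozygotes (p21Het, +/-), 5 of mice with 1 p21 mTert allele (p21mTert, +/mTert) and 2 of mice with 1 p21 mTertCD allele (p21mTertCD, +/mTertCD). The labels do not explain the letters CD, and they name no strain, sex or number of animals per library. Mice were 18 months old, except those of p21Het_1 at 19 and p21mTert_1 at 20 months, where the number after the group is the replicate. WT_1, p21Het_1 and p21mTert_1 carry earlier accessions than the other 8 libraries and are called the earlier deposit.

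Surfactant is a film of phospholipid and protein that lowers surface tension in the alveoli. Alveolar type 2 (AT2) cells make it, store its lipids with the hydrophobic proteins SP-B and SP-C in lamellar bodies, which are lysosome-related organelles, and take much of it up again. The collectins SP-A and SP-D are secreted as well and bind microbial surfaces. In GRCm38 (GENCODE M21), Sftpa1 lies at chr14:41131782-41136452 (+ strand), Sftpd at chr14:41172214-41185149 (- strand), and Sftpc at chr14:70520949-70524081 (- strand). Sftpb lies at chr6:72304610-72314371 (+), Napsa at chr7:44572380-44586862 (+), Abca3 at chr17:24351950-24410201 (+), Lpcat1 at chr13:73467197-73516422 (+), Lamp3 at chr16:19653378-19706375 (-) and Slc34a2 at chr5:53038081-53071664 (+).

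Promoters are shown because all 9 genes were high in the same cells, and 6 of the 9 were matched in RefSeq (GRCm38.p6). Each stretch runs from 250 bases before to 50 bases after the RefSeq start, 5′ to 3′ on the gene's strand. The 4 that held a searched motif are printed, with the match in capitals: chr14:41131538-41131837 (+) for Sftpa1, chr6:72304360-72304659 (+) for Sftpb, chr16:19706316-19706615 (-) for Lamp3 and chr5:53049103-53049402 (+) for Slc34a2, whose RefSeq start lies inside the GENCODE gene.
Sftpa1: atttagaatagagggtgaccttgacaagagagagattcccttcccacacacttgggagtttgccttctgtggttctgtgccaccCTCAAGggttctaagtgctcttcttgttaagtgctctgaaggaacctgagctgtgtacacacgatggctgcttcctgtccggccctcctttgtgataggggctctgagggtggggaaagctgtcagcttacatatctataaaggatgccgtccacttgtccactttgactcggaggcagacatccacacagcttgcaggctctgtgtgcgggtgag
Sftpb: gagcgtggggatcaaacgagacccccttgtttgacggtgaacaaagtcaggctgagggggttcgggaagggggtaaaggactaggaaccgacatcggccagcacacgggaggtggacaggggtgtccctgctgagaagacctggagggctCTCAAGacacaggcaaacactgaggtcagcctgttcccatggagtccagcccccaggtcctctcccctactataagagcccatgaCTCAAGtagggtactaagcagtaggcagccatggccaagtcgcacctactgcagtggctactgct
Lamp3: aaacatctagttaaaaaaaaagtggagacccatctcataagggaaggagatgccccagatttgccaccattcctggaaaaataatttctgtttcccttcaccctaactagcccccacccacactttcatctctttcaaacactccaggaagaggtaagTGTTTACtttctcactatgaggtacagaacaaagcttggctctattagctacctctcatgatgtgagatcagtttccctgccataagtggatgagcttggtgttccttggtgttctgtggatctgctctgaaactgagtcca
Slc34a2: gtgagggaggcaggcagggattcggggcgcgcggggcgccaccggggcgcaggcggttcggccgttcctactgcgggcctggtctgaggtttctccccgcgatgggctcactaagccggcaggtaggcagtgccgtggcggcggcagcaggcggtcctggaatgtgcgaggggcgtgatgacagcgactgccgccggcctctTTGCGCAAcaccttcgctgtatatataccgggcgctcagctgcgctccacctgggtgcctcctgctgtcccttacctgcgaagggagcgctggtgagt

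The motifs were searched on both strands. CTCAAG, the core letters of NKX2-1 sites, occurred 166 bases before the start of Sftpa1 and 100 and 15 bases before that of Sftpb, and in 15.9% of all 32851 promoters of the table. The forkhead letters TGTTTAC occurred 92 bases before the start of Lamp3 and in 3.65% of promoters. The C/EBP letters TTNNGCAA occurred 48 bases before the start of Slc34a2 and in 10.8% of promoters. Abca3 and Lpcat1 held none of the 3 motifs in this window. The CpG content of the 6 promoters was uneven. Lamp3 had 0 CpG, Sftpa1 5 and Sftpb 8, against 25 for Lpcat1, 29 for Abca3 and 30 for Slc34a2, with a median of 7 over all promoters. These matches describe letters and are no evidence of binding.

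Libraries held 42038434 to 85988955 UMIs (unique molecular identifiers, each taken as 1 captured RNA molecule). Levels are given as CPM, the UMIs of a gene per 1000000 UMIs of the same cells. Of 81983 barcodes, 69267 passed the filter of 1000 to 30000 UMIs and at most 14% mitochondrial UMIs, with library medians from 4133 to 6454 UMIs per kept cell. The median mitochondrial share was highest in the earlier deposit, at up to 6.58%, and the lowest of all libraries was 2.82%. Pairs of libraries shared 4 to 20 barcodes. In whole libraries Tert stood at 0.544 to 0.842 CPM in p21Het and 2.00 to 3.28 in p21mTert, with 1.90 and 2.59 for p21mTertCD and 1.13 for WT. It rested on 27 to 188 UMIs per library. Cdkn1a, the p21 gene, stood at 118 to 187 over all libraries.

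Cells were placed in lineages by markers that include none of the 9 genes, and 57219 cells took one of 14 lineages. The AT2 gate held 2589 cells, 106 to 373 per library, and the median AT2-gated cell had 17527 to 23499 UMIs in a library, close to the upper limit of 30000. AT2 markers summed to 15407 to 21643 CPM in AT2-gated cells of all 11 libraries, against 3.44 to 11.2 for the T-cell markers, 33.8 to 265 for those of alveolar macrophages and 1338 to 3260 for those of club cells. Of the club markers, Scgb1a1 had a mean of 2202 CPM. Neutrophil markers summed to 157 to 296 CPM. AT1 markers summed to 984 to 1191 CPM in p21Het, 1263 to 1391 in p21mTert, 1176 to 1380 in p21mTertCD and 1443 in WT. The part of these markers in differences between genotypes was not tested. Another 3097 cells carried markers of several compartments, as doublets would, and were left out. These mixed cells held 10.9% to 39.2% of a library's Sftpa1 UMIs.

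All 9 genes were far higher in AT2-gated cells than in lymphocytes (T, B and NK gates together), whose level serves as the background of free RNA, in 11 of 11 libraries each. Among all genes of at least 1 CPM, 25.4% were likewise higher in every library, so AT2-gated cells exceeded lymphocytes in many genes. The mean difference in log2(CPM + 1) was 8.28 for Slc34a2, 8.18 for Sftpc, 8.13 for Sftpd, 7.94 for Sftpa1, 7.91 for Sftpb and 7.49 for Lamp3. It was 5.44 for Lpcat1, 5.12 for Abca3 and 3.27 for Napsa. Each had an adjusted p of 0.00248 in an exact two-sided sign-flip permutation test within libraries (n = 11), where the unadjusted 0.000977 is the smallest p that 11 libraries allow. Against T cells alone, where 25.6% of all genes were higher in every library, the difference for Napsa was 6.91 rather than 3.27, and the Napsa level of B cells is given below.

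**Figure D1:**
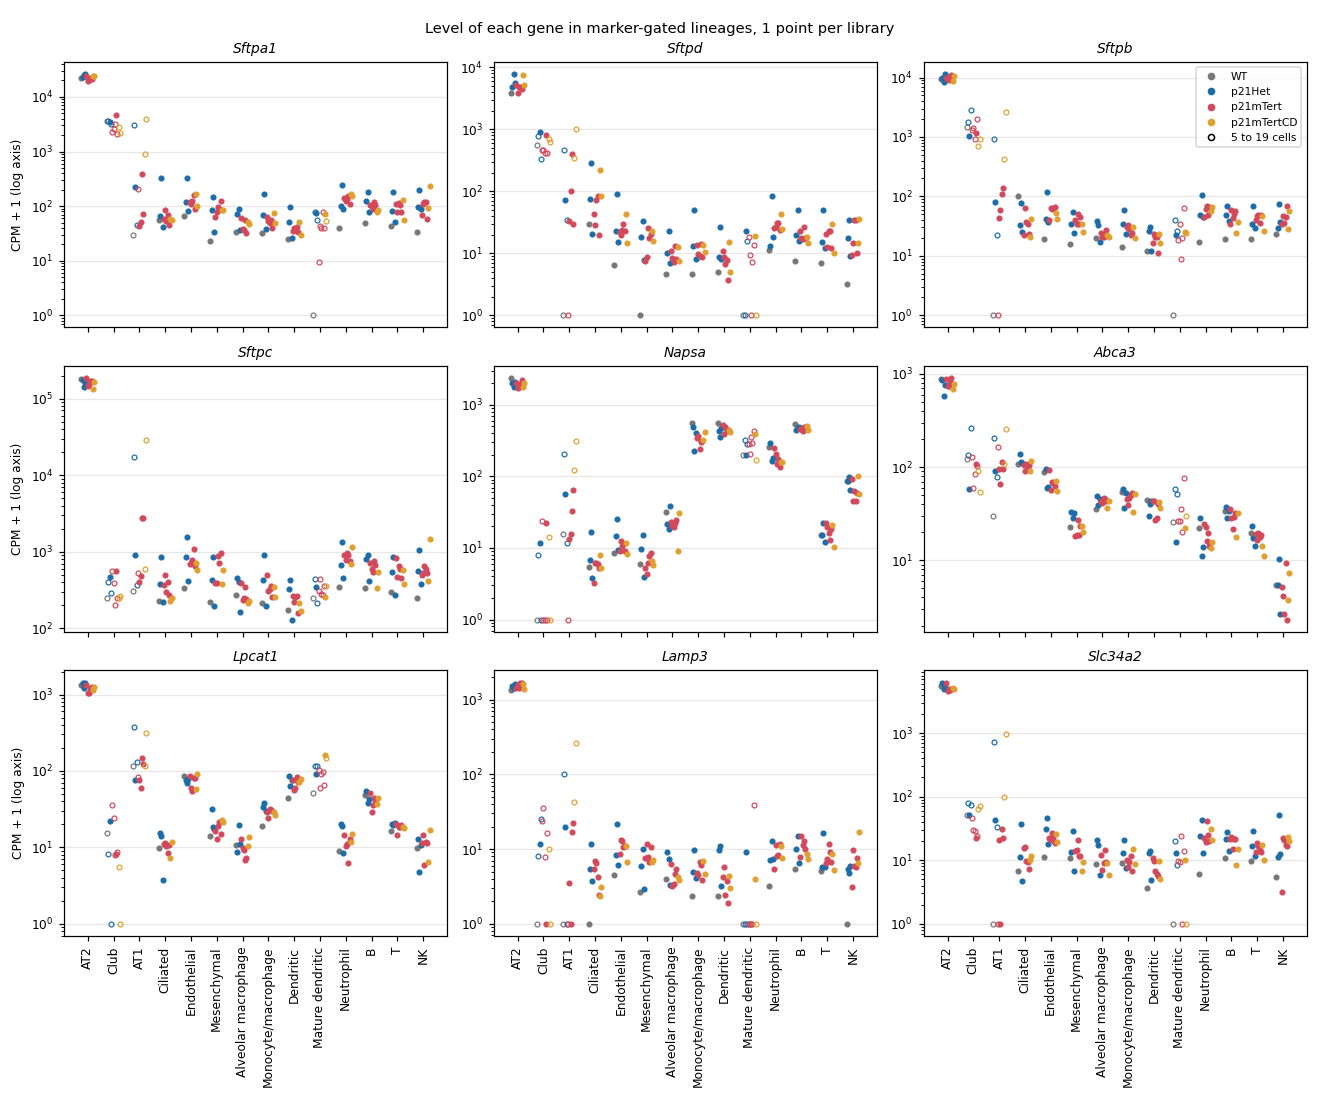
Level of each gene (CPM + 1, log axis) in 14 marker-gated lineages, with 1 point per library coloured by genotype. Open points rest on 5 to 19 cells. Every gene was highest in AT2-gated cells, the club gate came next for Sftpa1, Sftpb and Sftpd, and Napsa was also high in B, dendritic and monocyte/macrophage cells.

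Levels in AT2-gated cells are given in CPM, with n = 11. Sftpc, the precursor of SP-C, ran from 132678 to 183902 over the 11 libraries, and T cells of the same libraries had 271 to 861 with a median of 546. Lamp3, a glycoprotein of the lamellar body membrane, ran from 1350 to 1688 in AT2-gated cells against 4.05 to 15.5 in T cells. For Slc34a2, the sodium-phosphate cotransporter of the apical membrane, the ranges were 4519 to 6222 and 8.77 to 28.1. None of these ranges overlapped. By the looser criterion of higher in every library, 25.6% of all genes were above T cells. Of all UMIs of a gene in kept cells, the AT2 gate held 67.7% to 69.5% for the 4 surfactant protein genes, Lamp3 and Slc34a2. It held 60.6% for Lpcat1, 53.2% for Abca3 and 41.1% for Napsa, where AT2-gated cells held 8.45% of all UMIs and were 3.74% of cells.

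Club cells, secretory cells of the airways, carried 3 of the 4 surfactant protein transcripts. In the 2 libraries with 20 or more club-gated cells Sftpa1 stood at 3444 and 4615 CPM, and with 2 libraries the exact sign-flip permutation test cannot go below p = 0.5 (9.08% of all genes were higher in both). The minimum was therefore lowered to 5 cells after the data were seen, which brought in all 11 libraries (170 cells). Sftpa1 then ran from 2077 to 4615 CPM with a median of 3236, Sftpb from 699 to 2827 with a median of 1306, and Sftpd from 335 to 885 with a median of 556. Differences from lymphocytes were 4.98, 5.00 and 4.94 in log2, in 11 of 11 libraries each (adjusted p = 0.0019, exact sign-flip permutation test), where 2.21% of all genes were higher in every library. Sftpc stood at 201 to 562 and was lower than in lymphocytes in 11 of 11 libraries (-0.74, adjusted p = 0.0019, exact sign-flip test). Slc34a2 was higher by 1.43 and Abca3 by 2.14, each in 11 of 11 libraries and with the same adjusted p by the same exact test. Lamp3 differed by -0.24 (adjusted p = 0.698, exact sign-flip test).

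Low counts of surfactant transcripts were found in every lineage, and their ratios to Sftpc differed between lineages. Per 100 Sftpc UMIs, AT2-gated cells had a median of 13.5 UMIs of Sftpa1, 6.12 of Sftpb, 2.85 of Sftpd, 3.19 of Slc34a2 and 0.98 of Lamp3. T cells had 17.1, 7.15, 2.56, 2.83 and 1.37, and B cells 15.8, 7.02, 3.00, 2.82 and 1.34. For these genes the T- and B-cell ratios were within 1.5 times those of AT2-gated cells. Napsa, Abca3 and Lpcat1 differed more, at 1.23, 0.48 and 0.75 in AT2-gated cells against 2.64, 2.86 and 3.03 in T cells. In club-gated cells of the 2 libraries with at least 20 such cells, the ratios were 782 for Sftpa1, 213 for Sftpb and 166 for Sftpd. Over the 80 pairs of gene and lineage without AT2 cells and Sftpc itself, 18 were higher than lymphocytes on CPM and 14 per Sftpc UMI, a scale added after the data were seen, and 10 were higher on both. The AT1, club and mature dendritic pairs among the 80 could not pass. With 5 or 2 libraries the exact sign-flip permutation test cannot go below p = 0.0625 or 0.5. By a different criterion, higher in every library, 9.08% to 35.2% of all genes were above lymphocytes on CPM, by lineage, and 11.9% to 68.4% per Sftpc UMI.

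**Figure D2:**
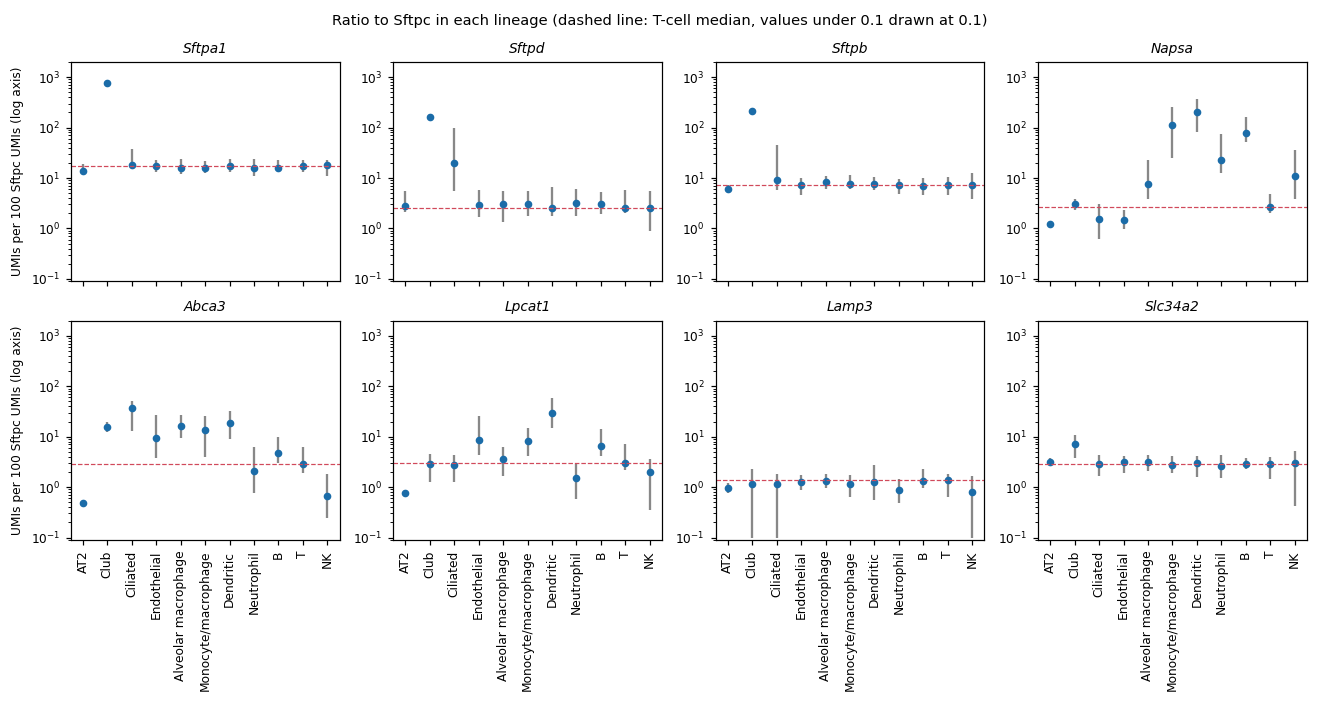
UMIs of each gene per 100 Sftpc UMIs (log axis) in 11 lineages. Points are medians over libraries, bars run from the lowest to the highest library (2 libraries for club cells, 11 for the others), and the dashed line is the T-cell median. Sftpa1, Sftpb, Lamp3 and Slc34a2 lay near the line in most lineages, whereas Napsa rose to 200 in dendritic cells and 78.3 in B cells.

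Endothelial cells and neutrophils were slightly above lymphocytes in all 4 surfactant protein genes, by 0.29 to 0.36 and by 0.37 to 0.50 in log2 of CPM, with adjusted p from 0.00387 to 0.0100 (exact sign-flip permutation test). Of all genes, 35.2% and 14.2% were higher than in lymphocytes in every library. Endothelial-gated cells had median depths of 2670 to 4607 UMIs and neutrophils 2783 to 4450, against 3774 to 6188 in lymphocytes. Per Sftpc UMI, Sftpa1, Sftpb and Sftpd did not pass the test in either lineage. Sftpa1 differed by 0.027 in endothelial cells (adjusted p = 0.815) and by -0.080 in neutrophils (adjusted p = 0.294, exact sign-flip tests). Alveolar macrophages, which take up surfactant, had 162 to 454 CPM of Sftpc and were below lymphocytes in 11 of 11 libraries (-1.01, adjusted p = 0.00248, exact sign-flip test). Their median depths were 12495 to 22643 UMIs, and they had 16.1 Sftpa1 UMIs per 100 Sftpc UMIs. Per Sftpc UMI, Sftpb was higher there than in lymphocytes by 0.20 (10 of 11 libraries, adjusted p = 0.0426, exact sign-flip test), and Sftpa1 and Sftpd did not pass. On that scale 52.2% of all genes were higher in alveolar macrophages in every library. On CPM Sftpb was lower there than in lymphocytes (-0.79, higher in 1 of 11 libraries, adjusted p = 0.00387, exact sign-flip test). In mesenchymal cells none of the 9 genes was higher than in lymphocytes by the test, where 27.7% of all genes were higher in every library.

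Sftpd was also above background in ciliated cells, the airway cells that bear cilia. It ran from 18.4 to 284 CPM there with a median of 71.2, against 6.22 to 48.3 in lymphocytes, and was higher in 11 of 11 libraries (1.71, adjusted p = 0.00248, exact sign-flip permutation test; 34.3% of all genes were higher in every library). Its ratio per 100 Sftpc UMIs was 19.5 in ciliated cells and 2.64 in lymphocytes. Sftpc itself was lower in ciliated cells than in lymphocytes in 11 of 11 libraries (-0.74). Per Sftpc UMI, 54.6% of all genes were higher in ciliated cells than in lymphocytes in every library. On that scale Sftpd was higher by 2.52 (11 of 11 libraries, adjusted p = 0.0046), Sftpb by 0.65 (10 of 11, adjusted p = 0.0123) and Sftpa1 by 0.26 (10 of 11, adjusted p = 0.0352, exact sign-flip tests). On CPM the latter pair had the other sign: Sftpa1 was lower in ciliated cells than in lymphocytes (-0.49, higher in 2 of 11 libraries, adjusted p = 0.0483) and Sftpb had -0.11 (higher in 4 of 11, adjusted p = 0.800, exact sign-flip tests).

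Napsa, an aspartic protease that helps process the SP-B precursor, was carried by several immune lineages. B cells had 428 to 541 CPM, dendritic cells 358 to 554 and monocytes with interstitial macrophages 230 to 552, against 9.32 to 21.6 in T cells, and none of these ranges overlapped that of T cells. Against T cells the log2 differences were 4.85 in B cells, 4.77 in dendritic cells, 4.42 in monocytes and macrophages and 3.51 in neutrophils, each in 11 of 11 libraries (adjusted p = 0.0024, exact sign-flip permutation test). Among all genes, 13% were higher than T cells in every library for B cells, 13.9% for dendritic cells, 23.8% for monocytes and macrophages and 15.2% for neutrophils. Against all lymphocytes, B cells included, Napsa was higher in dendritic cells (1.13) and in monocytes and macrophages (0.78), each in 11 of 11 libraries (adjusted p = 0.00248, exact sign-flip test). Under a stricter gate the latter was 0.41 and was not called (adjusted p = 0.0828, exact sign-flip test). Napsa was not higher in neutrophils (-0.13, higher in 2 of 11, adjusted p = 0.575, exact sign-flip test). The shares of all genes higher than lymphocytes were 12.9%, 23.3% and 14.2%. B cells held 17.2% of all Napsa UMIs in the pooled libraries, from 3.85% in p21mTertCD_1 to 23.7% in WT_1, and the AT2 gate held 26.3% to 54.2%. After each cell was thinned to 1000 UMIs, 36.5% ± 1.63 (SD, n = 11) of B cells and 1.38% ± 0.399 of T cells had a Napsa UMI; unthinned, 82.4% and 6.52% did, at median depths of 4637 and 5914 UMIs.

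Abca3, the lipid pump of the lamellar body membrane, and Lpcat1, an acyltransferase that makes saturated phosphatidylcholine, were detected above background in further lineages. Abca3 stood at 90.4 to 138 CPM in ciliated cells, 54.2 to 93.3 in endothelial cells and 34.3 to 47.9 in alveolar macrophages, against 13.3 to 30.8 in lymphocytes. The ciliated difference was 2.26, the endothelial 1.64, that of monocytes and macrophages 1.06 and that of alveolar macrophages 0.92 in log2, each in 11 of 11 libraries (adjusted p = 0.00248, exact sign-flip permutation test). In every library, 34.3% of all genes were higher in ciliated cells and 35.2% in endothelial cells. The shares were 23.3% in monocytes and macrophages and 29.5% in alveolar macrophages. With monocytes and macrophages in place of lymphocytes as background, Abca3 was -0.14 in alveolar macrophages and -0.32 in dendritic cells. Lpcat1 stood at 52.9 to 90.9 in endothelial cells and 43.5 to 84.9 in dendritic cells, against 18.2 to 40.6 in lymphocytes. Of all genes, 35.2% and 12.9% were higher than in lymphocytes in every library. The Lpcat1 differences were 1.36 and 1.26 in log2, in 11 of 11 libraries (adjusted p = 0.00248, exact sign-flip test). The lymphocyte background itself was uneven: B cells exceeded T cells by 0.78 for Abca3 and 1.18 for Lpcat1, each in 11 of 11 libraries (adjusted p = 0.0024, exact sign-flip test). Of all genes, 13% were higher in B cells than in T cells in every library. Against T cells alone, 23.8% of all genes were higher in monocytes and macrophages in every library. On that background Lpcat1 was also higher in them (0.64, 11 of 11 libraries, adjusted p = 0.0024, exact sign-flip test). Abca3 was also higher in mesenchymal cells (0.47, 10 of 11 libraries, adjusted p = 0.00597, exact sign-flip test), where 28.1% of all genes were higher in every library. Per Sftpc UMI, Abca3 and Lpcat1 stayed higher than lymphocytes in endothelial cells, by 1.35 and 1.06 (adjusted p = 0.0046, exact sign-flip test). On that scale 27.9% of all genes were higher in endothelial cells in every library.

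Lamp3 is also known as a marker of mature dendritic cells in humans. In the mature dendritic gate (190 cells) 10 Lamp3 UMIs were counted, which is 4.10 CPM with an exact Poisson 95% confidence interval of 1.97 to 7.54 that covers counting error only. T cells had 4.05 to 15.5. Lamp3 was therefore not detectable above background there. Lpcat1 was, by 1.72 in log2 and in 11 of 11 libraries of at least 5 such cells (adjusted p = 0.0019, exact sign-flip permutation test). All genes higher in every library were 5.7% at that minimum and 21.3% in the 2 libraries with at least 20 cells.

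AT1 cells, the flat cells of the alveolar surface, were too few for a firm level: Sftpc ran from 305 to 28660 CPM in libraries with as few as 5 AT1-gated cells. Abca3 and Lpcat1 were higher than in lymphocytes in 11 of 11 libraries there (2.20 and 2.12, adjusted p = 0.0019, exact sign-flip permutation test, at least 5 cells per library, where 8.8% of all genes were higher in every library). In the 5 libraries with at least 20 AT1-gated cells, 20.2% of all genes were higher in each, Abca3 and Lpcat1 were higher in 5 of 5, and the smallest p the exact test allows is 0.0625.

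Within AT2-gated cells thinned to 1000 UMIs, Sftpc had a UMI in 99.8% ± 0.398 of cells (SD, n = 11), Sftpa1 in 99.4%, Sftpb in 99.2%, Sftpd in 95.6% and Slc34a2 in 91.5%. Napsa had one in 82.0%, Lamp3 in 70.2%, Lpcat1 in 61.9% and Abca3 in 47.4% ± 6.90, and unthinned the last rose to 87.9%. T cells thinned alike had a UMI of Sftpc in 37.7% and of Abca3 in 2.02%. In 1896 AT2-gated cells of at least 10000 UMIs, Sftpc took a median of 16.5% of a cell's UMIs and 20.6% at the 90th percentile (medians over libraries). Sftpd had a median of 0.438%, with 0.237% at the 10th and 0.818% at the 90th percentile, and its library medians ran from 0.355% to 0.727%. As a description over cells that share library and depth, the median within-library correlation was 0.50 between Sftpa1 and Sftpd, the 2 collectins, 0.49 between Sftpb and Sftpc, and 0.52 between Sftpc and Napsa. Sftpa1 and Abca3 had -0.058, and the libraries ranged from -0.30 to 0.34.

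None of the 9 genes was called between genotypes in AT2-gated cells (0 of 9 in each of 3 contrasts, edgeR, adjusted p under 0.05). Among 10754 genes tested, 8 were called for p21mTert minus p21Het, 4 for p21mTert minus p21mTertCD and 0 for p21mTertCD minus p21Het, which is 0.0744%, 0.0372% and 0.0%. The contrasts share groups and are not independent. At an unadjusted p under 0.05 stood 2, 1 and 0 of the 9 genes, against 5.95%, 7.28% and 4.27% of all genes. The 2 fell to 0 without p21Het_2, p21mTert_2, p21mTert_4 or p21mTert_5 and to 1 without p21Het_3 or p21mTert_3, and rose to 3 without p21Het_1 or p21mTert_1 and to 4 with a term for deposit. The 1 fell to 0 without p21mTert_2, p21mTert_4, p21mTert_5 or p21mTertCD_1 and rose to 2 without p21Het_1, p21mTert_1 or p21mTertCD_2, and the 0 was 0 with each library left out. Of all genes, 4.1% to 8.39% were at an unadjusted p under 0.05 in these fits of the first contrast and 4.09% to 13.3% in those of the second. DESeq2 called 0 of the 9 in each contrast and 11, 13 and 1 of all genes. In simulated counts for p21mTert minus p21Het, edgeR recovered 96% of 100 genes changed 2-fold among 10590 genes of AT2-gated cells. It recovered 82% among 17307 of whole libraries and 76% among 10379 of alveolar macrophage-gated cells, with 12, 12 and 8 false calls in the 3 sets. Another 100 genes were changed 4-fold in the same counts. Changed genes were drawn at random only from genes above a minimum mean level, so the shares do not cover genes of low level. Lamp3, for one, lay below that level in alveolar macrophage-gated cells, at a mean log2(CPM + 1) of 2.23. Many true changes also ease the adjusted threshold. The real fits called 8, 2 and 1 of all genes. These shares therefore do not give the chance that a changed member would be called. The contrasts with the 2 p21mTertCD libraries were not simulated. The labels do not say that libraries came from separate animals, so the p-values measure only the spread between libraries, which may be technical.

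Of the 9 genes, Sftpd had the largest fold changes in both contrasts with p21mTert, though not for p21mTertCD minus p21Het. It stood at 4841, 7764 and 5606 CPM in p21Het_1 to p21Het_3, at 5170, 3843, 4744, 4878 and 4373 in p21mTert_1 to p21mTert_5, at 7497 and 5102 in the p21mTertCD libraries and at 3784 in WT. p21Het_2 and p21mTertCD_1 stood apart at the top, and the groups overlapped. In AT2-gated cells of these libraries the 10 alveolar macrophage markers summed to 256 and 265 CPM, against 33.8 to 115 in the other 9, and 7 to 10 of the 10 had a UMI in each library. Alveolar macrophage-gated cells made up 7.53% and 8.07% of their cells, against 1.98% to 4.34% in the other 9, and the part of these in the Sftpd differences was not tested. The log2 fold change was -0.42 for p21mTert minus p21Het (SE 0.19, 95% confidence interval -0.82 to -0.023, edgeR adjusted p = 0.825) and -0.48 for p21mTert minus p21mTertCD (SE 0.21, edgeR adjusted p = 0.671). For p21mTertCD minus p21Het it was 0.062 (95% confidence interval -0.44 to 0.57). Single libraries decided these values: without p21Het_2 the first was -0.11, and without p21mTertCD_1 the second was -0.14.

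Sftpa1, the other collectin, stood at 23195, 24818 and 26273 in p21Het, at 24195, 19829, 20795, 22164 and 21455 in p21mTert, at 24622 and 24665 in p21mTertCD, and at 22540 in WT. Of the p21mTert libraries, only p21mTert_1 reached into the p21Het range, and all 5 were below both p21mTertCD libraries, which held for no other member and for 5.58% of all genes in AT2-gated cells. The fold change was -0.19 (SE 0.09, edgeR adjusted p = 0.825) against p21Het and -0.21 (SE 0.10, edgeR adjusted p = 0.702) against p21mTertCD, and neither was called.

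**Figure D3:**
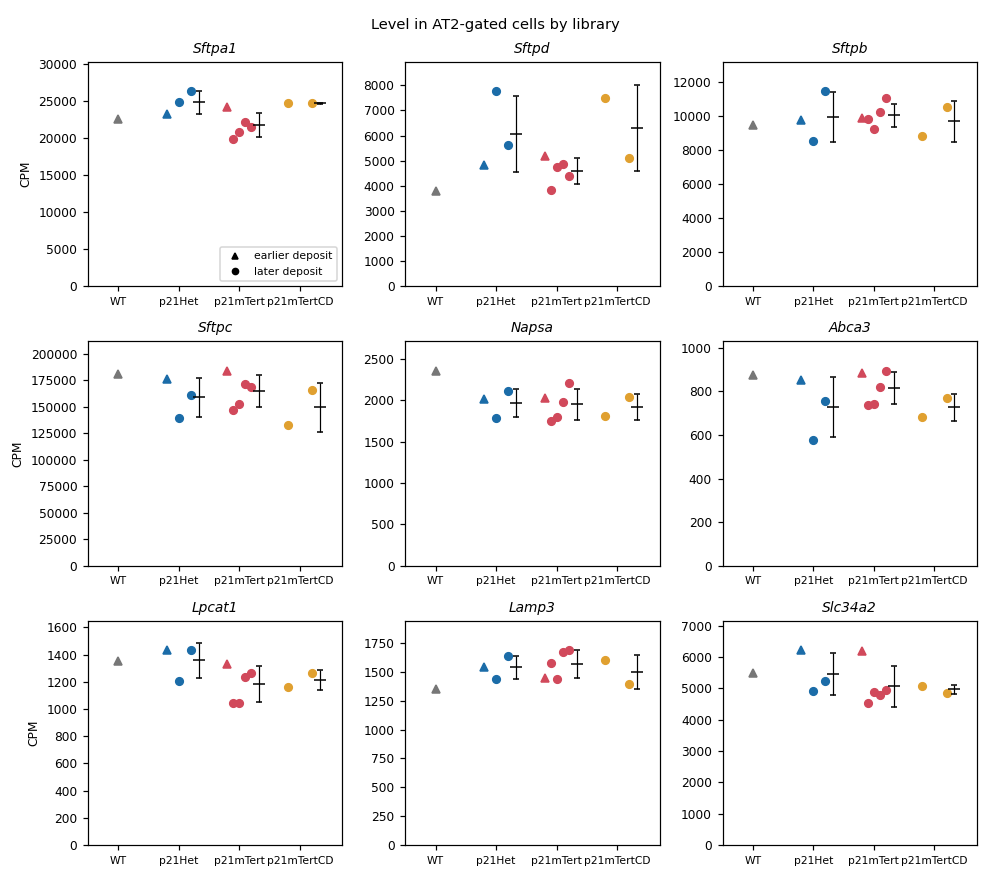
Level of each gene in AT2-gated cells (CPM, axes from 0), with 1 point per library. Triangles are the earlier deposit, circles the later one, and black marks show the mean and SD of groups with several libraries. Sftpd was highest in p21Het_2 and p21mTertCD_1, and for Sftpa1 all p21mTert libraries were below both p21mTertCD libraries, as for 5.58% of all genes.

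Sftpc stood at 175877, 139568 and 160668 in p21Het, at 183902, 147005, 152597, 171383 and 168813 in p21mTert, at 132678 and 165657 in p21mTertCD and at 180268 in WT. The 3 libraries of the earlier deposit were above the other 8, which is also so for Slc34a2 at 5488, 6222 and 6202 against at most 5246, and for 6.09% of all genes in AT2-gated cells. Deposit and genotype overlap only in part, and with a term for deposit or in the later deposit alone no member was called either. Among the 10 fitted libraries, those of the earlier deposit are also the older ones by the age labels, at 19 and 20 months against 18. Age and deposit cannot be told apart there. The Sftpc fold change was 0.060 (95% confidence interval -0.11 to 0.23, edgeR adjusted p = 0.959) for p21mTert minus p21Het and 0.12 for p21mTert minus p21mTertCD. Sftpb, whose product is needed to form lamellar bodies, ran from 8535 to 11444 over all libraries and had 0.024 (-0.18 to 0.23) for p21mTert minus p21Het. Napsa ran from 1748 to 2356 and had -0.0098 (-0.20 to 0.18). The intervals of these 3 genes all cover 0.

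Of the lipid-handling and membrane genes, Abca3 stood at 852, 578 and 756 in p21Het and at 885, 738, 743, 818 and 895 in p21mTert, with a fold change of 0.18 (-0.043 to 0.39, edgeR adjusted p = 0.872). Lpcat1 stood at 1430, 1207 and 1433 in p21Het and at 1331, 1047, 1042, 1233 and 1265 in p21mTert, with -0.19 (-0.39 to 0.0016, edgeR adjusted p = 0.825). Both pairs of groups overlapped. Lamp3 ran from 1350 to 1688 and had 0.030 (-0.19 to 0.25), and Slc34a2 ran from 4519 to 6222 and had -0.10 (-0.32 to 0.12) for the same contrast. For p21mTertCD minus p21Het all 9 fold changes lay between -0.13, for Lpcat1, and 0.062, for Sftpd.

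**Figure D4:**
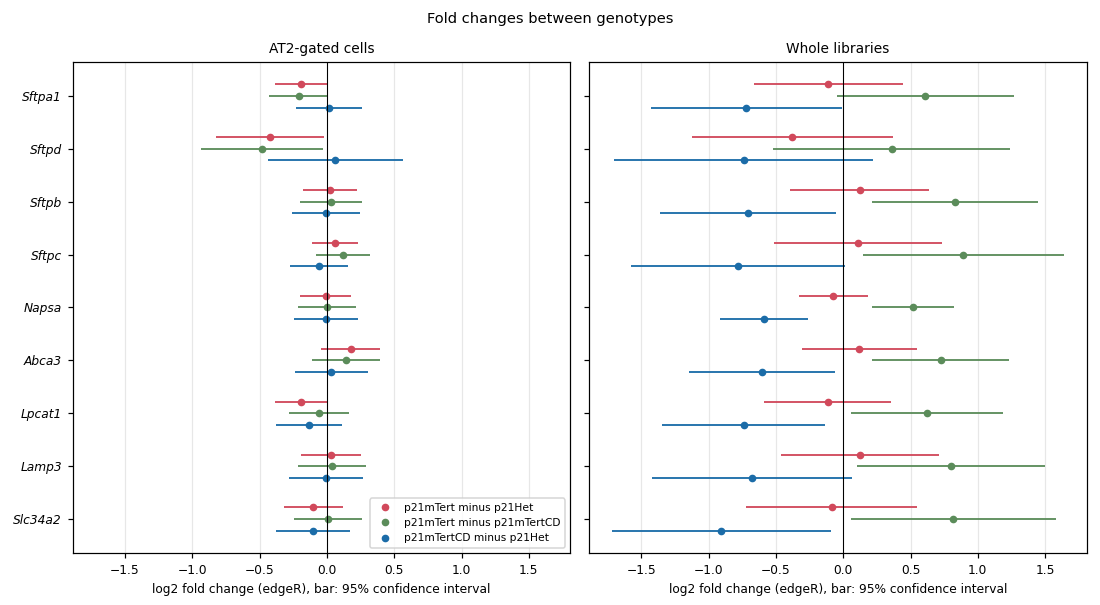
Fold changes (log2, edgeR) of the 9 genes for 3 contrasts, with 95% confidence intervals as bars, in AT2-gated cells (left) and whole libraries (right). In AT2-gated cells every point lay between -0.48 and 0.18, and in whole libraries all 9 were above 0 for p21mTert minus p21mTertCD and below 0 for p21mTertCD minus p21Het, with none called by edgeR.

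In whole libraries, where fewer AT2 cells and less RNA per cell cannot be told apart, 0 of 9 genes were called by edgeR in each contrast, against 0.0114%, 0.00571% and 0.12% of 17503 genes. At an unadjusted p under 0.05 stood 0, 7 and 6 of the 9, against 7.24%, 16.1% and 6.26% of all genes. Leaving out either p21mTertCD library leaves 1 in that group, which is then assumed to vary like the other groups. The 7 was then 0 without p21mTertCD_1 and 1 without p21mTertCD_2, and the 6 was 1 in both cases, while the Sftpc fold change for p21mTert minus p21mTertCD was 0.78 and 0.96. The 6 fell to 1 also without p21Het_1 or p21Het_2, to 4 without p21mTert_5 and to 1 with a term for deposit, and rose to 9 without p21Het_3. The 0 rose to 4 without p21Het_3 and to 1 without p21Het_1. Without p21Het_3 the shares of all genes were 5.29%, 19.4% and 12.7% in the 3 contrasts. Over the fits with 1 library left out they ran from 3.99% to 12.5%, 6.96% to 22.2% and 4.24% to 12.7%. Sftpc stood at 30410, 20616 and 9558 CPM in p21Het, at 19083, 21184, 23343, 25649 and 20557 in p21mTert, at 9987 and 12571 in p21mTertCD and at 24938 in WT. Both p21mTertCD libraries and p21Het_3 were low. The 9 fold changes ran from 0.36 (Sftpd) to 0.89 (Sftpc) for p21mTert minus p21mTertCD and from -0.59 (Napsa) to -0.90 (Slc34a2) for p21mTertCD minus p21Het. DESeq2 called Napsa alone of the 9, with 0.49 (DESeq2 adjusted p = 0.0119) and -0.58 (DESeq2 adjusted p = 0.0055), and called 587 and 182 of all genes. Without p21Het_3, edgeR called Lpcat1 (-1.01) and Slc34a2 (-1.25) for p21mTertCD minus p21Het, each at an edgeR adjusted p of 0.0279, with 85 of all genes called. For p21mTert minus p21Het the range was -0.38 (Sftpd) to 0.12 (Lamp3).

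AT2-gated cells made up 4.17%, 4.30% and 1.81% of cells in p21Het, 2.65% to 5.96% in p21mTert, 2.42% and 2.72% in p21mTertCD and 3.61% in WT, and the 3 libraries lowest in Sftpc included p21Het_3, with the lowest AT2 share. By these shares the order was not the same throughout: p21mTert_1, at 2.65%, had a smaller AT2 share than p21mTertCD_2, at 2.72%, and a higher Sftpc level. Mixed cells, not counted as AT2 here, held 37.5% of Sftpc UMIs in p21mTert_1 and 20.8% in p21mTertCD_2. With mixed cells kept, the AT2 gate held 235 of 6221 cells in p21mTert_1 and 182 of 5598 in p21mTertCD_2. Without the upper limit of 30000 UMIs, a setting added after the data were seen, the AT2 gate held 3339 rather than 2589 cells. It held 186 rather than 106 cells in p21Het_3 and 468 rather than 367 in p21Het_2. In p21mTertCD_2 it held 281 rather than 152, and in p21mTertCD_1 219 rather than 159. In p21mTert_2 to p21mTert_5 it held 427, 375, 462 and 276 rather than 326, 296, 373 and 189. The earlier deposit changed less, with 199 rather than 197 in WT_1, 266 rather than 259 in p21Het_1 and 180 rather than 165 in p21mTert_1. Without the limit, the Sftpc fold change for p21mTert minus p21mTertCD was 0.30 rather than 0.89. That of Slc34a2 was 0.13 rather than 0.82 and that of Sftpd -0.15 rather than 0.36. In this setting 0 of 9 genes were at an unadjusted p under 0.05 in any contrast (edgeR). Napsa in whole libraries stood at 241 and 316 in p21mTertCD, 350 to 558 in p21Het, 401 to 441 in p21mTert, and 581 for WT. B cells were 1.83% and 23.3% of cells for p21mTertCD, 12.4% to 37.0% for p21Het, 20.6% to 30.1% for p21mTert and 38.8% for WT. The part of these shares in the Napsa and Sftpc differences was not tested.

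**Figure D5:**
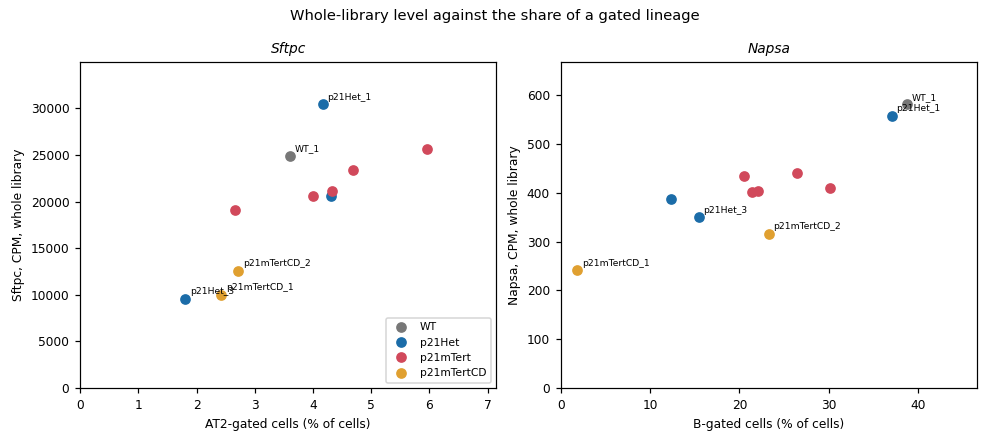
Whole-library level (CPM, axes from 0) of Sftpc against the share of AT2-gated cells (left) and of Napsa against the share of B-gated cells (right), with 1 point per library. p21Het_3 and both p21mTertCD libraries, at 9558 to 12571, had the lowest Sftpc levels, and p21mTertCD_1, with 1.83% B cells, had the lowest Napsa level. The next lowest Napsa level was that of p21mTertCD_2, with 23.3% B cells.

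In alveolar macrophage-gated cells, where all members except Abca3 were below the lymphocyte level, 0 of 9 genes were called in each contrast (edgeR), against 0.00953%, 0.0% and 0.0% of 10496 genes. No member reached an unadjusted p under 0.05 there, as did 6.26%, 5.62% and 1.73% of all genes, and DESeq2 called 0 members. Without p21Het_3 the count rose from 0 to 6 for p21mTert minus p21Het and from 0 to 5 for p21mTertCD minus p21Het, against 13.5% and 3.52% of all genes in those fits. Without any other single library, it was at most 1 in each contrast.

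A list of 56 other genes of the surfactant pathway was examined in AT2-gated cells, of which 52 passed the filter and 0 were called in each contrast (edgeR). Of all genes in AT2-gated cells, 0.0744%, 0.0372% and 0.0% were called. At an unadjusted p under 0.05 stood 5, 5 and 1 of the 52, against 5.95%, 7.28% and 4.27% of all genes, and for p21mTert minus p21Het 20 were above and 32 below 0, with a median of -0.059 against -0.0049 over all genes. Among fatty acid synthesis genes the malic enzyme Me1 had -0.42 and fatty acid synthase Fasn -0.36 for that contrast. The phosphatidylcholine transfer protein Pctp had -0.45 and Agpat2, an acyltransferase, -0.23. In the group for secretion of lamellar bodies, the purinergic receptor P2ry2 had -0.87 and the chloride channel Cftr 0.37. Ap3b1, an adaptor of lysosome-related organelles, had -0.24 and Vps33b 0.44. Among turnover genes the lipid exporter Abca1 had -0.77 and Sirpa -0.88, at mean levels of 14.2 and 1.79 CPM in AT2-gated cells. Sirpa, also known as a myeloid gene, stood at 913 CPM in alveolar macrophage-gated cells, and the alveolar macrophage markers in AT2-gated cells, given above for Sftpd, were 66.6 to 256 CPM in p21Het and 33.8 to 115 in p21mTert. Their part in these fold changes was not tested. Among transcription factors Gata6 had 0.25 and Foxa2 0.19. All 12 had an edgeR adjusted p of at least 0.785 and were not called. They were picked on p21mTert minus p21Het alone. Over the 52 genes, fold changes ran from -1.07 to 0.80 for p21mTert minus p21mTertCD and from -0.62 to 0.55 for p21mTertCD minus p21Het.

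Over 130 sums of library and lineage, the genes outside the list most correlated with the mean of the 9 were Cxcl15 (r = 0.96), Cftr (0.95), Sgpp2 (0.95), Hc (0.95), Fabp12 (0.94), Alkal1 (0.94), Mlc1 (0.94), Egfl6 (0.94), Mesp2 (0.94) and 9230117E06Rik (0.94), out of 13056 genes compared. Cxcl15, Hc and Egfl6 are markers of the AT2 gate and had to follow it. Against the same mean, which holds each of them, Sftpc had 0.97 and Slc34a2 0.97, whereas Abca3 had 0.76 and Napsa 0.58. The sums share libraries, so these values describe likeness only.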

How the data were processed

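The deposited matrices hold raw UMI counts per gene and barcode. Per the submitters' processing notes, reads were processed with Cell Ranger on mm10 (version 3.1.0 per the file headers). Cells were gated with lists of 12 compartment markers (at least 3 detected and 3 times those of the next compartment) and 10 lineage markers (at least 2 detected, leading by 2); cells mixed between compartments were left out and no doublet caller was run. UMIs were summed per library and lineage (at least 20 cells) and fitted with edgeR 4.0.16 (filterByExpr, TMM, quasi-likelihood test, group term) over the 10 replicated libraries, with Benjamini-Hochberg adjustment over all genes and calls at an adjusted p under 0.05; WT entered no test between genotypes. DESeq2 1.42.0 was an alternative. Lineages were compared with lymphocytes by exact two-sided sign-flip permutation tests on log2(CPM + 1), with Benjamini-Hochberg adjustment over the pairs of member and lineage. Thinning used 1000 UMIs per cell. The edgeR fit was first run on simulated counts in which 200 genes were changed. Named genes are all 9 members, up to 2 pathway genes of smallest p per role for p21mTert minus p21Het, and the 10 genes of most similar pattern. Members and lists were chosen with earlier results of these data known. Versions were Python 3.11.15, numpy 2.4.6, pandas 2.3.3, scipy 1.17.1, matplotlib 3.10.9 and R 4.3.3.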

Additional observations from a re-analysis of the deposited data

Results flagged for a closer look

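Among 27 sets of 5 p21mTert libraries (9 genes in AT2-gated cells, alveolar macrophage-gated cells and whole libraries), a sample far from the others was found in 2, and chance alone gives about 1 in 20. Slc34a2 in AT2-gated cells stood at 6202 CPM in p21mTert_1, the library of the earlier deposit, with the next at 4961 and the lowest at 4519. Lpcat1 in whole libraries stood at 213 in p21mTert_4, the library with the largest share of AT2-gated cells, with the next at 177 and the lowest at 166.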

How the results depend on the processing

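No member was called in any of the 3 contrasts in AT2-gated or alveolar macrophage-gated cells under any of the settings run (RLE size factors, totals without the members, DESeq2, no filter, a term for deposit, the later deposit alone, replicate block, stricter gate, cells above 3 times the median UMIs left out, at least 2000 UMIs, each library left out, and the added settings without an upper UMI limit and with mixed cells kept). In whole libraries DESeq2 called 1 member for p21mTert minus p21mTertCD and 1 for p21mTertCD minus p21Het, and leaving out 1 library gave 0 to 2 for the latter. Counts of all called genes ranged, over settings other than left-out libraries, from 0 to 44, 0 to 81 and 0 to 23 in AT2-gated cells, 0 to 31, 0 to 587 and 0 to 182 in whole libraries, and 0 to 7, 0 to 9 and 0 in alveolar macrophages. With single libraries left out they ranged from 4 to 8, 2 to 26 and 0 to 8 in AT2-gated cells, 1 to 7, 1 to 138 and 0 to 97 in whole libraries, and 0 to 4, 0 to 1 and 0 to 1 in alveolar macrophages. The counts for p21mTert minus p21mTertCD were 26 without p21mTertCD_1 in AT2-gated cells and 138 without p21mTertCD_2 in whole libraries, and that for p21mTertCD minus p21Het in whole libraries was 97 without p21mTertCD_2 and 0 without p21Het_1 or p21mTertCD_1. The cause was not tested.

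The replicate block (5 libraries numbered 2 and 3, 1 residual degree of freedom) called 0 members, and of all genes 0, 4 and 5 in AT2-gated cells, against 0, 0 and 0 in the same libraries without the block and 8, 4 and 0 in all 10 libraries. The labels do not say that numbers pair libraries, and same-numbered p21Het and p21mTert libraries had correlations of deviations of -0.25 and -0.20 in AT2-gated cells. Signs of small AT2 values changed: Sftpb for p21mTert minus p21Het was -0.0055 in the later deposit, -0.022 under the replicate block and -0.025 in the same libraries without it, and Napsa 0.0060 without the filter and 0.0025 under the stricter gate. Sftpc for p21mTert minus p21mTertCD was -0.070 under the block and -0.059 without it, and Sftpd for p21mTertCD minus p21Het -0.12 in the later deposit, -0.54 under the block and -0.46 without it. Sftpd in whole libraries was -0.15 without the upper limit for p21mTert minus p21mTertCD. With single libraries left out, ranges that crossed 0 were -0.025 to 0.11 for Sftpb, -0.043 to 0.016 for Napsa and -0.011 to 0.070 for Lamp3 (AT2, p21mTert minus p21Het), -0.29 to 0.37 for Sftpd (AT2, p21mTertCD minus p21Het), and -0.73 to 0.11 for Sftpd, -0.21 to 0.41 for Sftpc and -0.17 to 0.34 for Lamp3 (whole libraries, p21mTert minus p21Het).

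Of 99 gene and lineage pairs, 29 were above lymphocytes; other settings gave 27 to 38 of 81 to 99 pairs, single libraries left out gave 28 to 30 of 81 to 99, and the scale per Sftpc UMI, which leaves out AT2 cells and Sftpc itself, gave 14 of 80, where CPM gives 18. On that scale Sftpb was -0.033 and Lamp3 -0.11 in endothelial cells and Sftpa1 was -0.080 and Sftpb -0.076 in neutrophils, and with monocytes and macrophages as background Abca3 was -0.14 in alveolar macrophages and -0.32 in dendritic cells. Napsa in monocytes and macrophages was 0.41 under the stricter gate (adjusted p = 0.0828, exact sign-flip permutation test). AT1, club and mature dendritic cells were too few for firm levels.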
